A study of Mus musculus with 8 samples.

Results

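The cells described here were chosen by 4 genes of the developing joint, *Gdf5*, *Prg4*, *Erg* and *Wnt9a*, in sorted cells of embryonic day (E) 16.5 mouse forelimbs. A cell was taken when it held 1 or more unique molecular identifiers (UMIs, each marking 1 captured transcript) of at least 2 of the 4 genes and fewer than 2 UMIs of *Matn1*, a cartilage matrix gene. The rule found 150 of 11109 cells in the proximal library (1.35%, exact 95% interval 1.14 to 1.58%) and 228 of 8447 in the distal library (2.7%, 2.36 to 3.07%), together 378 of 19556 cells at E16.5 and of 53085 cells in the 8 libraries of the series. These intervals, like all others below, cover counting error only. The 4 genes and *Matn1* set membership, so their levels in these cells are a description. The other genes of the same cells do not mark a single population: some carried tendon genes, some cartilage genes and some fibroblast genes. Marker lists were read after every cell was thinned to equal depth. At least 3 tenocyte markers were held by 34% of chosen proximal and 11.8% of chosen distal cells, against 8.48 and 6.19% of the other cells. For chondrocyte markers the shares were 27.3 and 17.1%, against 10.3 and 5.17%. For fibroblast markers they were 9.33 and 18%, against 18.2 and 16.7%. Whether the chosen cells with tendon, cartilage or fibroblast genes belong to joints was not tested. The chosen cells are therefore called joint-gene cells below, after the rule.

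Synovial joints form where a continuous cartilage template is interrupted by an interzone, a strip of flattened cells that stop making cartilage matrix. *Gdf5*, a secreted factor of the BMP family, and *Wnt9a*, a Wnt ligand, are classical interzone genes, and *Erg*, a transcription factor of the ETS family, is known from the interzone and young articular cartilage. *Prg4* encodes lubricin, the lubricant made by superficial articular chondrocytes and the synovial lining, and tendon and its sheath are also known to make it. None of the 4 is exclusive to joints: *Erg* is also a gene of endothelial cells and *Wnt9a* is expressed in other connective tissue of the limb. In the GRCm38 assembly *Gdf5* lies at chr2:155941023-155945367 (minus strand), *Prg4* at chr1:150449412-150466165 (minus), *Erg* at chr16:95359169-95586593 (minus) and *Wnt9a* at chr11:59306928-59333552 (plus).

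Both E16.5 libraries held tdTomato+ cells from C57BL/6J embryos homozygous for a *Hic1* CreERT2 allele and a Cre-activated Rosa26 tdTomato reporter, labelled by 7.5 mg of tamoxifen given to the dam at E10. tdTomato thus marks cells that expressed *Hic1*, a transcriptional repressor gene of mesenchymal progenitors, around E10, and their descendants. According to the methods, forelimbs of several embryos were pooled, the proximal segment included the elbow, the distal segment included the lower forearm and the paw, and cells with blood or endothelial surface markers were gated out. The other libraries were sorted tdTomato+ cells of E11.5, E12.5, E13.5 and E14.5 limbs and whole E11.5 limbs in 2 libraries. Each E16.5 segment is 1 library, so no test between groups was possible and no p-value is given.

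The members were not shallow cells. Their median depth was 19330.5 UMIs in the proximal and 19543 in the distal library, beside 18471 and 17202 in the other cells. A tdTomato UMI was present in 150 of 150 proximal and 226 of 228 distal joint-gene cells, and tdTomato stood at 1474 and 855 CPM (UMIs of a gene scaled to the same total in every group of cells), near the 1339 and 853 CPM of the other cells. *Hic1* itself was at 15.7 CPM in proximal and 16.2 CPM in distal joint-gene cells, against 22.1 and 28.3 CPM in the other cells. The filtered E16.5 libraries shared 30 cell barcodes, none of them a joint-gene cell in both. No joint-gene cell carried 3 or more endothelial, immune, glial, erythroid or myogenic markers after every cell was thinned to 3000 UMIs, which allows shares of up to 2% of proximal and 1.32% of distal members by a floor of 3 counts (exact 95% upper limits 2.43 and 1.6%). At full depth 12 proximal and 7 distal members held 3 or more epithelial markers (8 and 3.07%, against 14 and 2.38% of the other cells). Still none held 3 of the other lineages. In the other cells no share for those lineages passed 0.164% at full depth, so these counts of 0 do not set the members apart.

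Most members were chosen on very few transcripts. Among proximal joint-gene cells, *Prg4* was detected in 94, *Wnt9a* in 81, *Erg* in 71 and *Gdf5* in 58 cells. In distal cells the order was different, with *Erg* in 183, *Wnt9a* in 130, *Gdf5* in 91 and *Prg4* in 67. A single UMI carried the detection in 71 of the 81 proximal and 93 of the 130 distal cells with *Wnt9a*. *Gdf5* and *Prg4* reached higher counts, with 3 or more UMIs in 23 and 26 proximal cells and in 23 and 21 distal cells, and a maximum of 33 UMIs of *Prg4* in 1 proximal cell. Only 4 proximal and 15 distal members held 3 of the 4 genes, and no member held all 4.

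The values on each side of the rule describe the cells it took, and more *Gdf5* and *Prg4* inside follows from the rule itself. Proximal cells with exactly 2 of the genes had 73.1 CPM of *Gdf5* and 96.2 CPM of *Prg4*, and the 1452 cells just outside, with 1 gene, had 7.96 and 12.9 CPM. In the distal library the same values were 38.8 and 30.4 CPM inside against 4.77 and 17.7 CPM in 1825 cells outside. The *Matn1* limit removed 82 proximal and 20 distal cells that held 2 or more of the genes. Of these, 7 proximal cells and 1 distal cell had 2 or 3 *Matn1* UMIs and the rest had more, and the removed cells stood at 18945 CPM (proximal) and 18330 CPM (distal) of *Col2a1*, the main cartilage collagen. The removed proximal cells carried more *Gdf5* than the members, at 162 CPM, and less *Prg4*, at 30.9 CPM. With 1 *Matn1* UMI, the 23 proximal members had 2574 CPM of *Col2a1*, against 1107 CPM in the 127 members with none.

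The 4 genes were not detected together equally. In the proximal library, a UMI of *Prg4* was found in 13.2% (exact 95% interval 10 to 17%) of 386 cells with *Gdf5* and in 2.71% (2.41 to 3.04%) of cells without it. *Erg* was found in 18.7% (14.9 to 22.9%) of cells with *Gdf5* and 4.34% (3.96 to 4.74%) of those without, and in the distal library in 32.8% (26.9 to 39.1%) and 11.7% (11 to 12.4%). *Gdf5* and *Erg* therefore met in the same cell more often than their shares apart, in both libraries. *Wnt9a* did not follow them. It was found in 4.15% (2.39 to 6.64%) of proximal cells with *Gdf5* against 8.91% (8.37 to 9.46%) of the rest, and in 11.2% (7.51 to 15.9%) against 10.2% (9.52 to 10.8%) in the distal library. Among cells with *Erg*, *Wnt9a* was found in 6.89% (4.9 to 9.37%) of proximal and 9.05% (7.37 to 11%) of distal cells, against 8.83 and 10.4% of cells without *Erg*, with overlapping intervals in both libraries. These shares include the cells later removed by the *Matn1* limit, which account for much of the overlap of *Gdf5* with *Erg* in the proximal library: 72 cells held both, and 15 of them met the rule. After thinning to 3000 UMIs the proximal excess of *Erg* with *Gdf5* (6.34 against 0.884%) and of *Prg4* with *Gdf5* (4.23 against 0.802%) was still seen, and that of *Erg* with *Prg4* (10.2 against 4.66% at full depth) was not, at 1 of 94 cells (1.06%) against 0.953%.

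**Figure D1:**
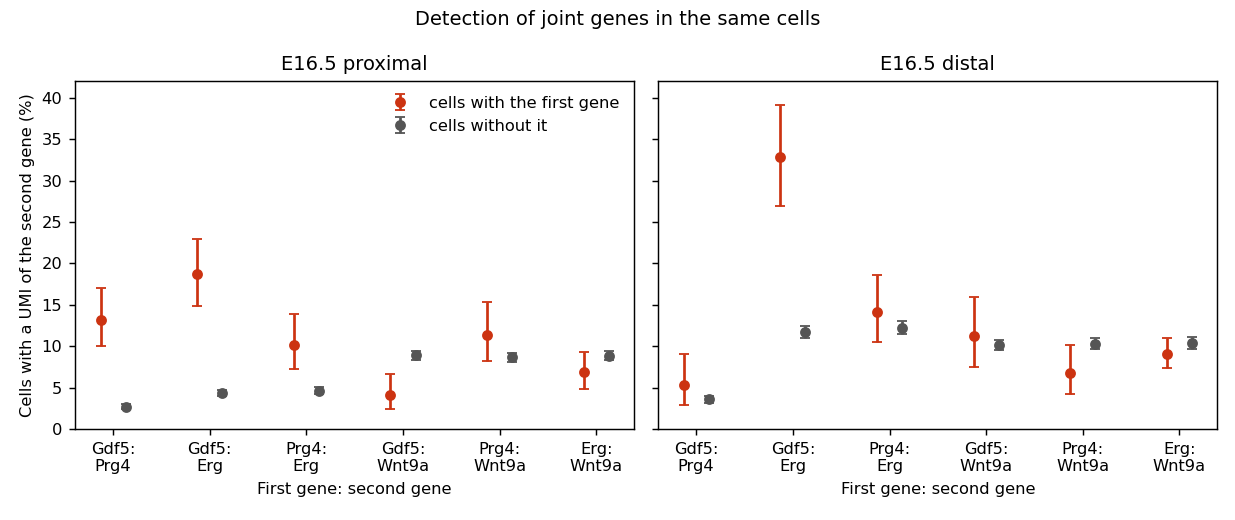
Share of cells with a UMI of a second gene (percent) among cells with a first gene (red) and cells without it (grey), for 6 gene pairs in the proximal and distal E16.5 libraries. Points are shares and bars exact 95% binomial intervals. The red share stands clear above the grey for Gdf5 with Erg in both libraries (18.7 against 4.34% and 32.8 against 11.7%) and for Gdf5 with Prg4 and Prg4 with Erg in the proximal library only, the last of which was not seen at equal depth (1.06 against 0.953%), while the red and grey intervals of Erg with Wnt9a overlap.

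Epithelial cells, which should lack all 4 genes, give the level of stray detection. Among 609 proximal cells with 5 or more of 7 epithelial markers (median 33582 UMIs, against 18131 in the remaining cells), a UMI was found of *Gdf5* in 0.985%, of *Prg4* in 1.15%, of *Erg* in 0.164% and of *Wnt9a* in 1.64%. The remaining proximal cells had 3.62, 3.19, 5.1 and 9.15%, above the epithelial share for each gene. None of these epithelial cells met the rule. The distal library had 57 such cells (median 27249 UMIs), with *Erg* in 3.51% and *Wnt9a* in 5.26%, and 0 of 57 with *Gdf5* or *Prg4*, which allows a share of up to 5.26% by a floor of 3 counts (exact 95% upper limit 6.27%). The remaining distal cells had *Gdf5* in 2.87%, *Prg4* in 3.68%, *Erg* in 12.4% and *Wnt9a* in 10.2%. Those limits lie above the shares of *Gdf5* and *Prg4*, and the epithelial interval of *Wnt9a* (1.1 to 14.6%) includes its share. For these 3 genes, 57 cells are thus too few to separate stray from other detection in the distal library. *Matn1* behaved differently, with a UMI in 23.5% of the proximal epithelial cells and 21.1% of the remaining cells, and in 2.96% and 9.64% after thinning to 3000 UMIs.

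Sorting the members by *Gdf5* and *Prg4* gave 4 kinds of cells that differed in size between the segments. In the proximal library 62 cells had *Prg4* without *Gdf5*, 32 had both, 26 had *Gdf5* without *Prg4*, and 30 were chosen by *Erg* and *Wnt9a* only. In the distal library these numbers were 55, 12, 79 and 82. Cells chosen by *Erg* and *Wnt9a* only were thus 20% of proximal and 36% of distal members. Their depth was the highest of the 4 kinds, at a median of 29521 UMIs in the proximal and 22989.5 in the distal library, and the proximal cells with *Gdf5* and *Prg4* were the shallowest, at 13376. The part of depth in these numbers was not tested.

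Fixed marker lists, read after thinning every cell to 3000 UMIs, gave different shares in some of the 4 kinds and overlapping ones in others. Of proximal cells with *Gdf5* and *Prg4*, 24 of 32 (75%, 56.6 to 88.5%) carried 3 or more chondrocyte markers, and of proximal cells with *Prg4* without *Gdf5*, 31 of 62 (50%, 37 to 63%) carried 3 or more tenocyte markers. The other proximal cells of the library had 10.3% and 8.48%. In the distal library the chondrocyte share was highest in cells with *Gdf5*, at 33.3% of the 12 cells that also had *Prg4* and 31.6% of the 79 that did not, and the tenocyte share was 27.3% in cells with *Prg4* alone, against 5.17% and 6.19% in the other cells. Cells chosen by *Erg* and *Wnt9a* only carried 3 or more dermal fibroblast markers in 30% of proximal and 24.4% of distal cells, and 3 or more fibroblast markers in 3.33% and 30.5%. The other cells had 10.2% and 15% for dermal and 18.2% and 16.7% for fibroblast markers. The proximal cells of that kind also had 3 or more tenocyte markers in 26.7% and 3 or more mitotic markers in 33.3%, against 8.48% and 12.5% of the other cells, and chondrocyte markers reached that number in 6.67% of proximal and 2.44% of distal cells. The 26 proximal cells with *Gdf5* without *Prg4* were mixed, with 34.6% for chondrocyte (17.2 to 55.7%), 23.1% for tenocyte and 26.9% for fibroblast markers, which overlapped the intervals of other kinds. The members of each kind were cut from the same measurements, so these shares describe them and were not tested.

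Cells with *Prg4* without *Gdf5* had high levels of tendon genes in both libraries. *Tnmd*, which encodes tenomodulin and marks tenocytes, stood at 2247 CPM in the proximal and 842 CPM in the distal cells of this kind, against 287 and 198 CPM in the other cells. *Scx*, the transcription factor of tendon progenitors, stood at 358 and 253 CPM against 47.2 and 62.4 CPM. *Cilp*, a matrix protein of articular cartilage and tendon, was at 114 and 79.1 CPM against 14.2 and 12.5 CPM. The proximal levels lay near those of the 1403 other proximal cells that held both *Scx* and *Tnmd*, with 2200 CPM of *Tnmd*, 368 of *Scx* and 102 of *Cilp*. The distal levels lay below those of the 765 such distal cells, at 1758, 475 and 106 CPM. Both reference sets were chosen by their *Scx* and *Tnmd* UMIs, so their levels of these genes follow in part from that choice. The 633 non-member cells of a proximal cluster led by *Tnmd*, *Cilp* and *Scx* stood higher, at 3753 CPM of *Tnmd*, 507 of *Scx* and 179 of *Cilp*. The proximal cells with *Prg4* without *Gdf5* thus lay below that cluster in all of these genes. Expression was not uniform, since *Tnmd* had a UMI in 42 of 62 proximal and 26 of 55 distal cells. *Sox9*, the main chondrogenic transcription factor, was at 128 CPM in the proximal cells, near the 122 CPM of the other cells, and at 145 against 77.1 CPM in the distal library. The median log2 ratio of 17 tendon and ligament genes was 1.04 in the proximal and 0.61 in the distal cells of this kind. The list was not particular to this kind. In cells with *Gdf5* without *Prg4*, with both, and with *Erg* and *Wnt9a* only, its proximal medians were 0.77, 0.87 and 0.91. The distal medians of these kinds, in the same order, were 0.42, 0.38 and 0.4. The summed level of 9 chondrocyte markers was about the same in both segments, 1447 CPM in the proximal and 1514 CPM in the distal cells of this kind, whereas the other cells, which include the cartilage cells barred by their *Matn1*, had 4021 and 1016 CPM. At least 3 of these markers were found, after thinning, in 9.68% of proximal cells (3.63 to 19.9%) and 14.5% of distal cells (6.5 to 26.7%), and at full depth in 33.9% and 23.6%. Among genes at 50 CPM or more that were detected in at least 1 in 3 of the cells, *Chst5* (58.3 against 5.86 CPM) led the proximal cells and *Fmod* (293 against 52.3 CPM), a small proteoglycan that binds collagen fibrils, led the distal cells.

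Proximal cells with *Gdf5* and *Prg4* had high levels of cartilage genes, and their low *Matn1* follows from the rule. Their summed chondrocyte markers were at 5915 CPM against 4021 CPM in the other cells, and their summed tenocyte markers at 2287 against 579 CPM. At least 3 tenocyte markers were held, after thinning, by 6 of the 32 cells (18.8%), against 8.48% of the other cells. *Sox9* was at 828 CPM (28 of 32 cells) and *Sox5*, its partner in cartilage, at 145 CPM (23 cells), against 122 and 18.1 CPM in the other cells. *Cytl1*, a secreted protein of cartilage, was at 461 CPM, near the 518 CPM of the 982 proximal cells with 2 or more *Matn1* UMIs. *Col2a1* was at 3106 CPM, well under the 17038 CPM of those cartilage cells, and *Acan*, which encodes aggrecan, at 316 CPM against 1156 CPM. The rule leaves out cells with 2 or more *Matn1* UMIs, in which *Col2a1* and *Acan* were highest, so these lower levels are a description of what it chose. *Prg4* reached 353 CPM and *Fmod* 767 CPM (28 of 32 cells), and *Igfbp7*, an IGF-binding secreted protein, had a UMI in all 32 cells at 1160 CPM, against 190 CPM in the cartilage cells. The Wnt inhibitors *Wif1* (472 CPM against 58.8 in the other cells) and *Notum* (38.4 against 0.859 CPM, in 11 of 32 cells) and the Wnt receptor gene *Fzd9* (203 against 19.7 CPM) were also high. *Fzd9*, *Sox9* and *Sox5* were not above cartilage. They stood at 226, 1070 and 201 CPM in the 690 non-member cells of a proximal cartilage cluster, where *Wif1* was at 95.5 CPM. The fixed list of Wnt response genes was not high in the cells with *Gdf5* and *Prg4*. Its median log2 ratio was -0.53 over 9 genes, with 1 above 1 and 3 below -1. Of the universal fibroblast genes, *Mfap5* was at 55.9 CPM against 411 CPM, and *Col15a1* at 80.4 against 9.17 CPM in 16 of 32 cells. The 12 distal cells with both genes had 2827 CPM of *Col2a1* in 7 cells and 244 CPM of *Sox9* in 8, and too few cells to say more.

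Some of the distal cells with *Gdf5* without *Prg4* had high levels of *Btc*, *Hbegf*, *Inhba*, *Sox5*, *Sox6* and *Sox9*, and 30 of the 79 cells of this kind fell into 1 cluster. *Btc*, which encodes betacellulin, a ligand of the EGF receptor, stood at 175 CPM (35 of 79 cells) against 6.63 CPM in the other cells, and a second such ligand, *Hbegf*, at 158 CPM (43 cells) against 33.7 CPM. *Inhba*, the subunit of activin A, was at 179 CPM (47 cells) against 30.1 CPM. The SOX trio was high together, with *Sox5* at 186, *Sox6* at 130 and *Sox9* at 362 CPM, against 29.4, 20.9 and 77.1 CPM. *Acan* (204 against 53.4 CPM) and *Hapln1*, the link protein of aggrecan (270 against 59.3 CPM), were high, but *Col2a1* was only 839 CPM, far below the 13773 CPM of the 192 distal cells with 2 or more *Matn1* UMIs. *Tspan15*, a tetraspanin, was at 61.4 against 3.32 CPM and came from 23 of the 79 cells. The cells of this kind were not alike, since *Btc* had a UMI in 35 and *Hbegf* in 43 of the 79. Outside that cluster, the other 49 cells were spread, 13 of them in the cartilage cluster and 7 in a dividing cluster.

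The 26 proximal cells with *Gdf5* without *Prg4* shared part of this profile. *Sox9* was at 329 CPM in 17 cells, *Bmp2*, a BMP ligand, at 142 CPM (15 cells) against 23.4 CPM, and *Dkk3*, a secreted protein related to Wnt inhibitors, at 112 CPM (18 cells) against 17.4 CPM. *Btc* was at 16.5 CPM in them, a log2 ratio over the other cells of 2.82 beside 4.53 in the distal cells, but all 150 proximal members together held only 18 UMIs of it, in 4 cells. *Hbegf* was not higher, at 22.1 CPM against 30.9 CPM. *Ly6a* stood at 82.7 CPM but came from 4 cells, so this small set was mixed.

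Cells chosen by *Erg* and *Wnt9a* only had little cartilage expression. *Col2a1* was at 142 CPM in proximal and 84.7 CPM in distal cells, beside the 78.7 and 68.3 CPM of cells with none of the 4 genes and fewer than 2 *Matn1* UMIs. *Sox9* was at 43 and 29.9 CPM, against 48.4 and 42.2 CPM in those cells. In the proximal library *Irx1* (149 against 44.6 CPM, 15 of 30 cells) and *Col7a1*, the anchoring fibril collagen under the epidermis (96.1 against 29 CPM, 12 cells), were high, genes of the fixed dermal list, and *Tnmd* was also high at 1216 CPM in 14 cells. *Irx1* was at 34.3 against 41.7 CPM in the distal cells and *Col7a1* at 67.7 against 48.3 CPM, and the summed dermal list was about equal in both segments, at 974 CPM in proximal and 968 CPM in distal cells of this kind, against 569 and 964 CPM in the other cells. High in the distal cells were *Ly6a* (135 against 36.6 CPM, 27 of 82 cells), *Pi16* (82 against 35.3 CPM, 26 cells) and *Mfap5* (691 against 316 CPM, 48 cells), which are used as markers of fibroblasts found in many tissues. The hyaluronan receptor gene *Cd44* (391 against 118 CPM, 63 cells) and the hyaluronan synthase gene *Has1* (53.9 against 16.1 CPM, 23 cells) were high in the same distal cells, though 1 distal member held 55 of the 157 UMIs of *Has1*. *Igfbp6* was at 383 against 90.6 CPM there, in 42 cells.

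**Figure D2:**
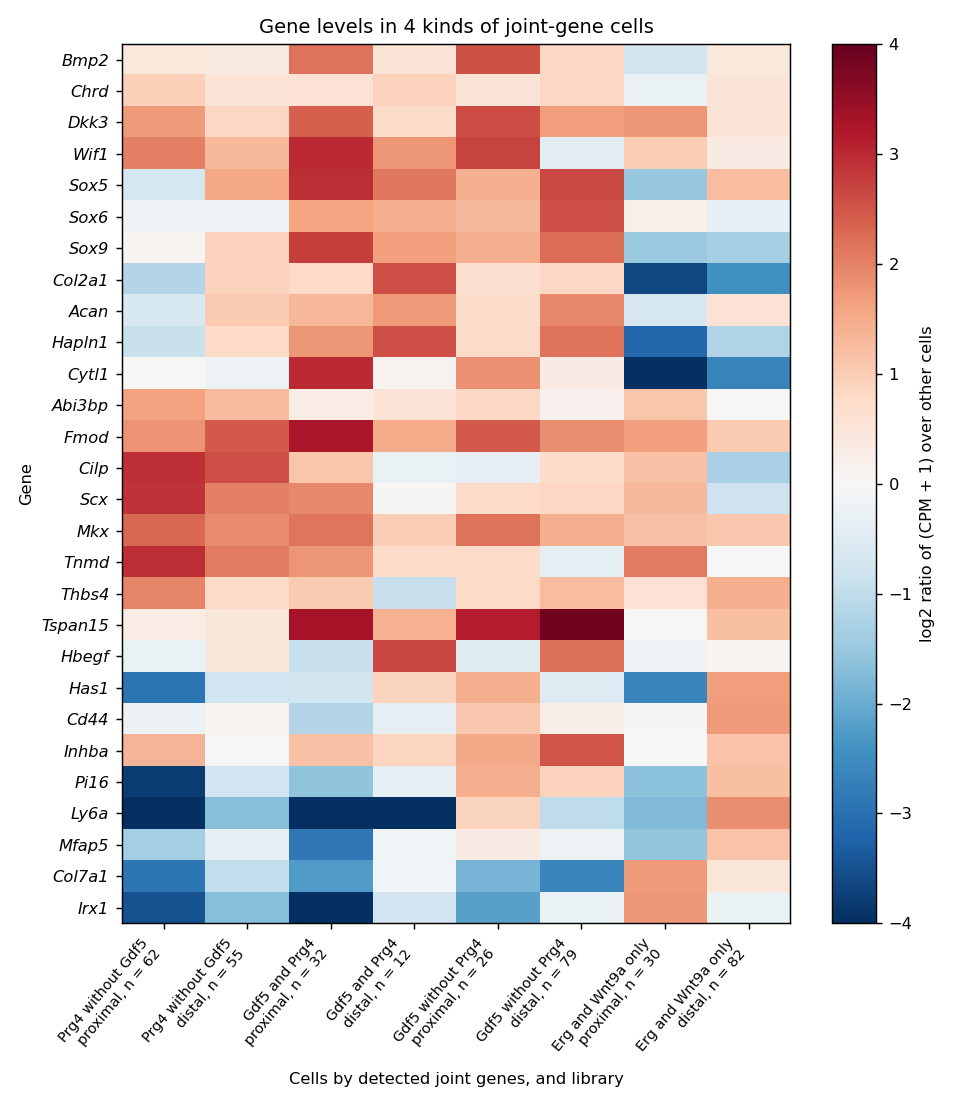
Level of 28 genes in 4 kinds of joint-gene cells of each E16.5 library, as the log2 ratio of (CPM + 1) over the other cells of the library; rows are genes, columns kinds of cells with their number, red is higher and blue lower, and colours stop at 4 and -4. Cilp, Scx and Tnmd are red in cells with Prg4 without Gdf5, and Sox5, Sox6 and Sox9 in cells with Gdf5; the other cells include cartilage cells that the rule bars by their Matn1, so blue for cartilage genes is not a level below other non-cartilage cells.

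Clustering on other genes spread the joint-gene cells over many clusters. The 4 genes, *Matn1*, *Hic1* and the transgenes were left out of the clustering, and each library was clustered on its own. Proximal members fell into 15 of 20 clusters and distal members into 19 of 23. The cluster with the most members held 36 of 150 in the proximal library (24%, 17.4 to 31.6%) and 35 of 228 in the distal library (15.4%, 10.9 to 20.7%). In no proximal cluster were more than 6.64% of the cells members, and the highest share in a distal cluster was 21%. Both limits moved with the clustering: after thinning to 3000 UMIs they were 11.9% and 11.4%, and at Leiden resolution 2 they were 9.8% and 22.2%. Clusters of these cells were made from the same transcripts as the profiles above and are a description of them.

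In the proximal library the leading cluster was led by *Tnmd*, *Cilp* and *Scx* and took 25 of the 62 cells with *Prg4* without *Gdf5*. A dividing cluster with *Scx*, *Calca* and *Cilp* in front took 9 more. The cells with *Gdf5* and *Prg4* lay elsewhere, 14 of 32 in a cluster led by cartilage genes (*Col10a1*, *3110079O15Rik*, *Col9a1*, *Col2a1*) and 13 in a cluster led by *Tnn*, *Mecom*, *Igfbp7* and *Dkk3*. That first cluster was cartilage, with 2 or more *Matn1* UMIs in 94.1% of its 712 cells and *Gdf5* in 32.7% of them. Its 22 members had by rule fewer than 2 *Matn1* UMIs, whereas *Matn1* was at 7298 CPM in its other 690 cells, so the values that follow set *Matn1*-low beside mostly *Matn1*-high cells of 1 cluster and are a description of what the rule chose: *Dkk3* was at 92.4 against 7.26 CPM (in 13 of the 22 members), *Igfbp7* at 1473 against 224 CPM and *Wif1* at 647 against 95.5 CPM, and *Col2a1* was at 7704 against 23575 CPM. Gaps of that size were not seen in the cluster led by *Tnn*. There *Dkk3* was at 120 CPM in the 27 members and 130 CPM in the other 465 cells. *Igfbp7* was at 903 and 763 CPM in the same groups, and *Wif1* at 512 and 404 CPM. In the leading cluster *Scx* was at 511 CPM in the 36 members and 507 CPM in the other 633 cells.

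In the distal library the leading cluster of 167 cells was led by *Btc*, *Tspan15*, *Fam134b*, *Inhba*, *Foxc1* and *Sox5*. It took 30 of the 79 cells with *Gdf5* without *Prg4*, and 35 of its cells (21%) were members, the highest share in either library at this resolution. The highest share of members in any distal cluster was 7.84% at Leiden resolution 0.5 and 8.15% without cartilage matrix genes. *Gdf5* was detected in 32.9% (25.9 to 40.6%) of its cells and *Erg* in 35.3% (28.1 to 43.1%), *Prg4* in 2.99% and *Wnt9a* in 6.59%. None of its cells held 2 or more *Matn1* UMIs. Within this cluster *Btc* was at 446 CPM in members and 176 CPM in the other 132 cells, *Hbegf* at 412 and 77.4 CPM and *Tspan15* at 160 and 26.4 CPM. These 3 genes were chosen after their values were seen. Of the 435 *Hbegf* UMIs in all distal members, 55 came from 1 cell. The fibroblast cluster led by *Spink6*, *Anxa8* and *Pi16* took 18 of the 82 cells chosen by *Erg* and *Wnt9a* only, and *Wnt9a* was detected in 31.7% of all its 514 cells, the highest share of that gene in either library. The cluster with the highest share of cells with *Erg* was the distal cartilage cluster led by *Col2a1* and *Cytl1*, at 59.1% of 445 cells.

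**Figure D3:**
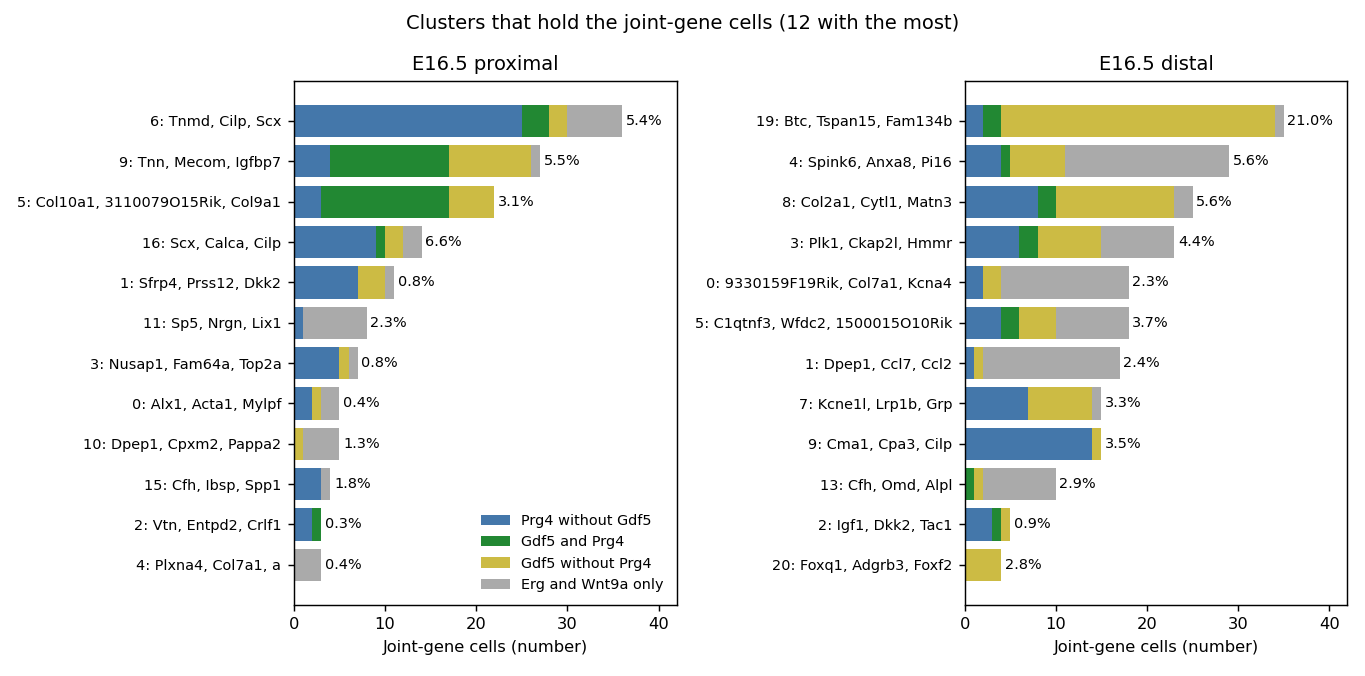
Number of joint-gene cells in the 12 clusters of each library that hold the most of them, coloured by the kind of joint-gene cell; each cluster is named by its number and leading genes, and the text at each bar is the share of the cluster's cells that met the rule. The proximal cluster with the most members is led by Tnmd, Cilp and Scx (36 cells, 5.38%), and the distal one by Btc, Tspan15 and Fam134b (35 cells, 21%).

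As 1 set, the joint-gene cells differed from the other cells by 2-fold in few genes. Among 7843 genes at 10 CPM or more in members or other cells of both libraries, 30 were at least 2-fold higher in both libraries (0.383% of those examined) and 35 at least 2-fold lower (0.446%). This 2-fold limit on the ratio of (CPM + 1) is a rule of size. The median log2 ratio of all 7843 genes was 0.1 in the proximal and 0.06 in the distal library. The number of higher genes depended on the settings: it was 119 when *Wnt9a* was left out of the rule and 12 with a pseudocount of 10 CPM in the ratio.

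Of the 12 genes with the largest ratios at 50 CPM or more, *Fmod* was first, at 382 CPM in proximal members (exact Poisson 95% interval 362 to 404 CPM) against 78.9 CPM, and at 178 CPM (167 to 190 CPM) against 52.3 CPM in the distal library. *Aqp1*, a water channel gene, followed with 52 against 18.6 CPM and 168 against 49.6 CPM. *Pcolce2*, an enhancer of procollagen processing, was at 86.2 against 22.7 CPM and 66.4 against 26.5 CPM. These 3 and *Dkk3*, *Fhl1* and *Col8a2* passed 2-fold in both libraries. The remaining 6 genes, *Tnmd*, *Igfbp7*, *Scx*, *Ssc5d*, *Wif1* and *Tnc*, passed it in the proximal library only. For *Tnmd* the log2 ratio was 2.34 in the proximal and 0.8 in the distal library, where 1 cell alone held 265 of 1806 UMIs. Of these 12 genes 3 changed direction with the rule: the mean log2 ratios of *Tnmd* and *Pcolce2* were -0.27 and -0.14 in cells with 2 or more UMIs of each of 2 genes, and that of *Scx* was -0.27 after thinning.

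**Figure D4:**
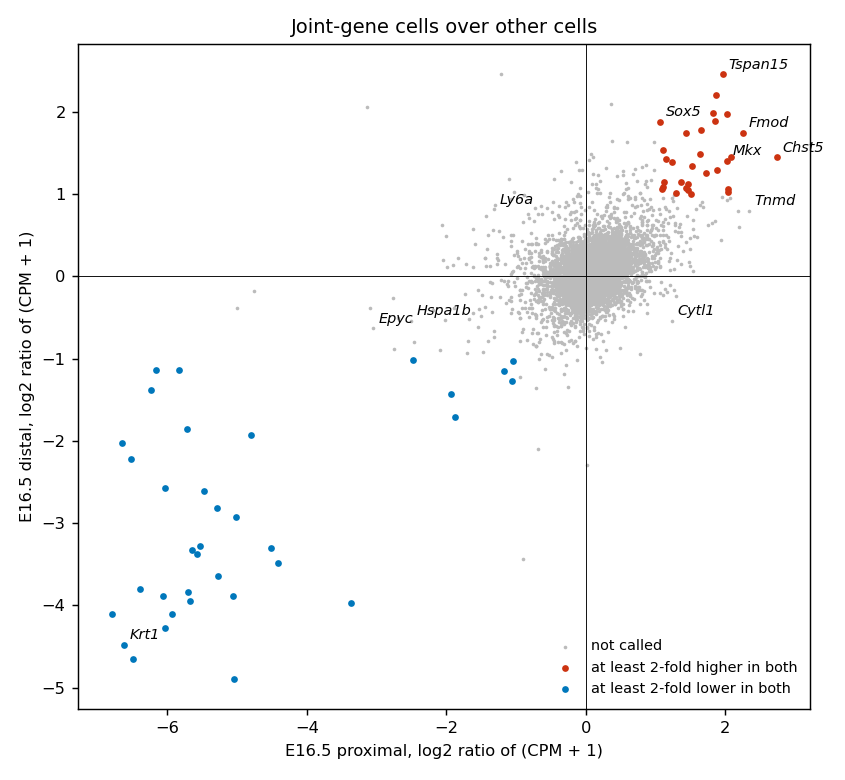
Log2 ratio of (CPM + 1) of joint-gene cells over the other cells in the proximal (horizontal) and distal (vertical) E16.5 libraries for 7843 genes; red and blue points are at least 2-fold higher or lower in both, grey points are not. The 30 red genes include Fmod, Sox5, Mkx, Chst5 and Tspan15, and the 35 blue genes reach log2 ratios under -6 in the proximal library, with Krt1 at -6.62.

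The 15 gene lists held 179 different genes, of which 141 could be examined, and 12 of these (8.51%) were at least 2-fold higher in both libraries, beside 0.383% of all genes examined. Since members and lists were chosen with these data known, the counts describe the cells and support nothing further. Among transcription factors of joints and cartilage, 2 of 14 were higher in both, *Sox5* (log2 ratios 1.07 proximal and 1.88 distal) and *Sox9* (1.09 and 1.06). *Sox6* was at 0.67 and 1.25. *Barx1*, a homeobox gene of early joints, was at 0.38 and 1.65, and *Osr1* and *Osr2*, zinc finger genes of limb connective tissue and joints, lay between -0.13 and 0.23.

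Few of the other joint signals stood apart. Of 9 such genes, *Dkk3* was at least 2-fold higher in both, and *Bmp2* was at 58.1 against 23.4 CPM in the proximal and 64.5 against 43.8 CPM in the distal library. *Wnt4* was more than 2-fold lower in proximal members, at 21.2 against 48.4 CPM, and at 42.6 against 38.2 CPM in the distal library. *Nog* and *Chrd*, antagonists of BMP, had log2 ratios of -0.65 and 0.57 in the proximal and 0.24 and 0.63 in the distal library. *Gdf6*, the close relative of *Gdf5*, was at 2.12 and 3.24 CPM and *Wnt16*, another interzone Wnt, at 2.42 and 3.05 CPM, both too low to be examined. Of 14 genes of BMP reception and feedback, and of 5 of Hedgehog and PTHrP reception, none passed 2-fold in either direction in either library, with medians of 0.23 and 0.15 for the former and 0.22 and 0.07 for the latter.

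Several genes of the fixed articular surface and tendon lists were high. Of 9 articular surface genes, *Cilp* (log2 ratios 2.04 and 1.06) and *Col22a1*, a collagen of tissue junctions (1.64 and 1.49), were higher in both libraries, and the list's medians were 1.18 and 0.48. Of the 202 *Cilp* UMIs of proximal members, 152 came from the 36 members in the cluster led by *Tnmd*, *Cilp* and *Scx*. The 22 members in the cartilage cluster held 0, and the 27 in the cluster led by *Tnn* held 1. Of 17 tendon and ligament genes, *Fmod*, *Mkx*, *Thbs4* and *Tgfbi* were higher in both and the medians were 1.03 and 0.53. *Mkx*, a homeobox regulator of tendon, was at 39.6 against 9.05 CPM and 46.9 against 17.1 CPM. *Lum* and *Dcn*, proteoglycans of loose connective tissue and tendon, were lower in all 4 comparisons of this kind, between -0.4 and -0.33. Of 8 synovial lining genes *Tspan15* was higher in both (1.97 and 2.46), and the list's medians were -0.27 and 0.48. *Cd55* (-0.21 and 1.15) and *Hbegf* (-0.36 and 1.28) passed 2-fold in the distal library only, and *Pdpn*, *Vcam1* and *Thy1* lay between -0.63 and 0.11.

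The level of cartilage matrix genes depended on the cells compared, since the rule bars cells with 2 or more *Matn1* UMIs from the members and leaves them, 982 proximal and 192 distal, among the other cells. Against all other cells the list's median log2 ratio was -0.34 in the proximal and 0.25 in the distal library over 16 genes, 0.01 over the mean of both. Without those *Matn1* cells it was 2.39. *Col2a1* stood at 1340 CPM in proximal and 639 CPM in distal members, against 1771 and 471 CPM in all other cells, but 312 and 226 CPM in cells with 1 of the 4 genes and fewer than 2 *Matn1* UMIs and 78.7 and 68.3 CPM in such cells with none. Against all other cells, only *3110079O15Rik* was at least 2-fold lower in both. *Acan* was at 142 against 126 CPM in the proximal and 127 against 53.4 CPM in the distal library. *Epyc*, a proteoglycan of deeper growth cartilage, was at 13 against 115 CPM in the proximal library and 6.49 against 10.6 CPM in the distal. *Col10a1* of hypertrophic cartilage had 0 UMIs in the 150 proximal members, but it was detected in only 0.274% of the other proximal cells. At that share a count of 0 does not set the members apart.

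Of 14 TGF-beta genes, 1 (*Inhba*) was at least 2-fold higher in both libraries, and the medians were 0.69 and 0.43, beside 0.1 and 0.06 for all genes examined. *Tgfb3* was at 56.9 against 24.3 CPM and 65.5 against 48.4 CPM. Among universal fibroblast genes *Col15a1* was the 1 of 7 higher in both (1.65 and 1.78), and the list's median was -0.68 in the proximal and 0.5 in the distal library. Immediate early genes had medians of -0.79 and -0.3, with the heat shock gene *Hspa1b* at 21.5 against 127 CPM in the proximal and 34.7 against 51.1 CPM in the distal library. The Wnt response list had medians of -0.13 and -0.18 and the hyaluronan list -0.15 and 0.57, with no gene of either past 2-fold in both.

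Most of the lower genes were epithelial. Of the 35 genes at least 2-fold lower in both libraries, 26 were keratins or other genes of epithelium and 3 were haemoglobin genes. The remaining 6 were *Cygb*, *Aldh1a3*, *Plat*, *Ucma*, *Cxcl10* and *3110079O15Rik*. *Krt1*, a keratin of upper epidermal layers, was at 11.8 against 1254 CPM in the proximal and 9.35 against 230 CPM in the distal library. *Krt1* was still detected in 22.7% of proximal members, close to 25.6% of the other cells. The summed level of 7 epithelial markers was 67.5 CPM in proximal and 41.8 CPM in distal members against 3518 and 642 CPM in the other cells. When cells with 3 or more markers of epithelial, endothelial, immune, erythroid, myogenic or glial lineages were left out, 7 genes instead of 35 were lower in both, and 31 were higher.

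Many of the genes that differed most between distal and proximal members also separated the other cells of the 2 libraries, and others did not. *Hoxd13*, a distal patterning gene, was at 100 CPM in distal and 1.51 CPM in proximal members, a log2 ratio of 5.33 beside 4.85 in the other cells. *Hoxa13* had 167 UMIs in distal members (31.9 CPM) and 0 of 150 proximal cells, which were below a floor of 0.908 CPM. *Rpl29* and *Gm10076*, higher in distal members by 5.15 and 3.11, and *Gm3550*, *Gm10263* and *Gm9843*, lower by -4.6, -4.45 and -2.43, had almost the same ratios in the other cells (5.3, 3.2, -4.74, -4.54 and -2.15). The headers name different versions of the counting software for these libraries, so segment and processing cannot be told apart.

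Larger in members than in other cells was the ratio of *Btc*, at 3.13 on the log2 scale (55.3 against 5.45 CPM) beside 1.62. *Slc26a7*, an anion transporter gene, was at 67.9 against 3.93 CPM, 3.8 beside 2.44. *Tnmd* and *Ntm* were lower in distal members, by -2.08 and -2.26, beside -0.54 and -0.85 in the other cells, and *Comp*, a matrix protein of cartilage and tendon, by -1.95 beside -1.37. *Nts*, the neurotensin gene, had the largest distal ratio (5.88, beside 0.29 in the other cells), but 299 of its 304 UMIs came from 1 cell. *Prg4* itself, which set membership, was at 98.9 CPM in proximal and 33.4 CPM in distal members, and *Erg* at 29.7 and 67.7 CPM.

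The same rule selected other cells at earlier stages. At E11.5 it took 41 of 3165 cells (1.3%, 0.931 to 1.75%), and at E12.5 it took 159 of 4714 (3.37%, 2.88 to 3.93%). For E13.5 the number was 219 of 6123 (3.58%, 3.13 to 4.07%), and for E14.5 it was 255 of 8381 (3.04%, 2.69 to 3.43%). The 2 whole limb libraries had 17 cells each, 0.311% and 0.299%. Depth rose between these libraries, from a median of 6788 UMIs at E13.5 to 18473 in the proximal E16.5 library, and the reagent kit changed after E13.5. After thinning to 3000 UMIs the E11.5 share was 0.221%, the E12.5 share 0.976%, the E13.5 share 1.24% and the E14.5 share 0.31%. The proximal E16.5 library then had 0.153% and the distal 0.249%. At equal depth the E12.5 and E13.5 intervals thus lay above those of the other sorted libraries.

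The make-up of the selected cells also differed by stage. *Gdf5* was present in 75.6% of them at E11.5, then in 85.5% (E12.5), 82.6% (E13.5) and 60.4% (E14.5), but in 38.7% of proximal and 39.9% of distal cells at E16.5. *Prg4* was present in 0%, 1.26%, 8.22% and 15.7% in the earlier libraries and in 62.7% and 29.4% at E16.5. The *Matn1* limit of the rule did not act equally at all stages. Over all cells *Matn1* stood at 0.0952 CPM at E11.5, and at 515 CPM in the proximal and 33.5 CPM in the distal E16.5 library. The 82 proximal E16.5 cells removed by the limit had 162 CPM of *Gdf5*, against 72.3 CPM in the members. The part of this limit in the shares of *Gdf5* and *Prg4* by stage was not tested. Over all cells, *Gdf5* was highest at E13.5, at 29.1 CPM (27.6 to 30.7 CPM), and stood at 5.87 CPM in the proximal and 2.79 CPM in the distal E16.5 library. *Prg4* was at 0.0952 CPM at E11.5 (3 UMIs) and at 3.68 and 5.22 CPM at E16.5. *Erg* was highest at E13.5, at 22.6 CPM, followed by E12.5 (12.4 CPM) and the distal E16.5 library (11.6 CPM, 11.1 to 12.1 CPM), whose intervals overlap. *Wnt9a* was highest at E12.5, at 15.1 CPM, and at 4.87 and 7.18 CPM at E16.5.

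**Figure D5:**
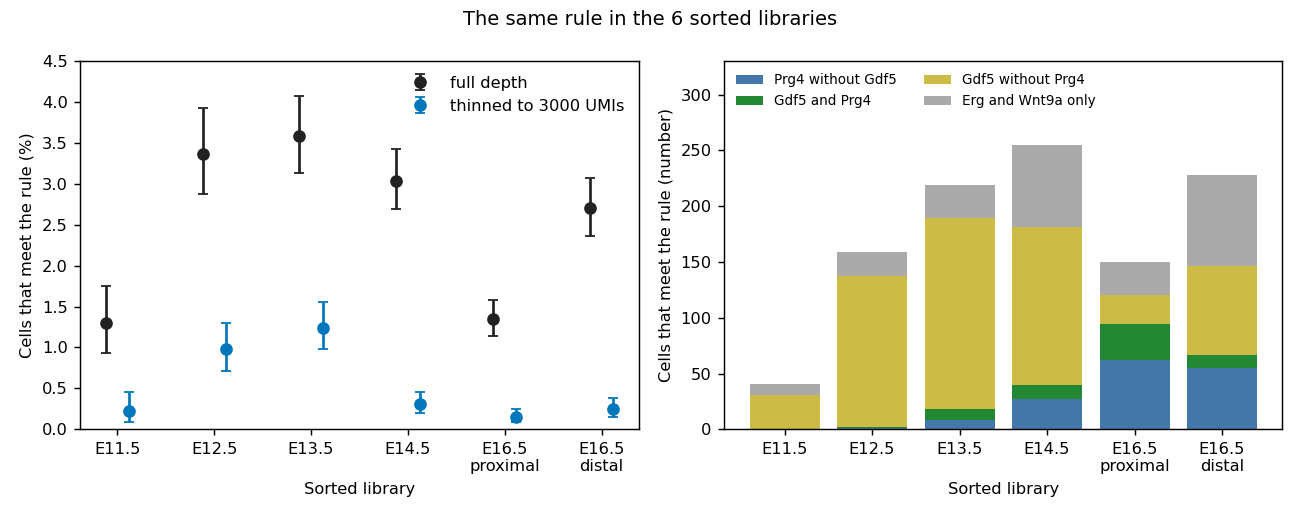
The same rule in the 6 sorted libraries: left, share of cells that met it (percent) at full depth (black) and after thinning every cell to 3000 UMIs (blue), with exact 95% intervals; right, number of such cells by kind. Thinned shares peak at 1.24% at E13.5, and cells with Prg4 make up 62.7% of the proximal and 29.4% of the distal E16.5 cells against 1.26% at E12.5.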

How the data were processed

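Gene-by-cell matrices of unnormalized UMI counts, as deposited, were used; the authors aligned 10x Genomics 3′ reads to mm10 (GRCm38) with added transgene sequences and, per the file headers, Cell Ranger 3.0.2 counted the E16.5 proximal and 6.0.1 the E16.5 distal library. Cells with 3000 or more UMIs and at most 10% mitochondrial UMIs were kept. Groups came from the GEO labels. The members and gene lists were chosen with earlier results of these data known. UMIs were summed over cells and scaled to CPM, and ratios of (CPM + 1) were taken within a library, with no test because each group is 1 library. The self-written steps were tested on simulated data. Named genes were the 12 largest and 8 smallest mean ratios at 50 CPM or more, the 6 largest segment ratios in each direction, and the fixed lists. Genes named for 1 kind of member were chosen after their values were seen. Intervals are Clopper-Pearson for shares and exact Poisson for sums, and cover counting error only; a count of 0 was given a floor of 3 UMIs. Clusters used 2000 variable genes, 50 principal components, 25 neighbours and Leiden resolution 1 (scanpy 1.11.5, leidenalg 0.10.2, Python 3.11.15). Scrublet marked 1 proximal and 0 distal cells, too few to count as a working doublet call, so doublets remain in the data. Gene positions are from GENCODE M21 (GRCm38).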

Additional observations from a re-analysis of the deposited data

Results flagged for a closer look

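In 5 list genes the joint-gene cells lay above the other cells in one E16.5 segment and below them in the other, by a log2 ratio of at least 0.5 in each and with counting intervals that did not include equality. The difference between segments was not tested, since each is 1 library. *Cytl1*, of the articular surface list, had a log2 ratio of 1.24 in the proximal and -0.54 in the distal library. By detection it was more frequent in members of both, at 22 against 9.54% of proximal and 13.2 against 6.38% of distal cells. The other cells of this comparison include the cartilage cells that the rule bars by their *Matn1*. *Has1*, of the hyaluronan and synovial lining lists, was at -0.64 and 0.86, with 55 of its 157 distal UMIs in 1 cell. The universal fibroblast genes *Ly6a* (-1.31 and 0.82), *Mfap5* (-1.08 and 0.50) and *Pi16* (-0.69 and 0.76) were lower in proximal and higher in distal members. The kinds of members differed in this. The list's distal median was 1.13 in cells chosen by *Erg* and *Wnt9a* only. It was -0.78 with *Prg4* without *Gdf5*, -0.37 with *Gdf5* without *Prg4* and -0.1 with both. In the proximal library it was 0.88 with *Gdf5* without *Prg4* and between -2.32 and -1.35 in the other kinds.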

How the results depend on the processing

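The share of members moved with the rule. In the proximal library it was 0.153% after thinning, 0.036% with 3 of the 4 genes, 2.09% with no *Matn1* limit, 1.14% with 0 *Matn1* UMIs, 0.837%, 0.54%, 0.747% and 0.648% with *Gdf5*, *Prg4*, *Erg* or *Wnt9a* left out, 0.171% with 2 UMIs of each of 2 genes and 1.08% without cells chosen by *Erg* and *Wnt9a* only, an alternative chosen after seeing the data. In the distal library thinning gave 0.249%, 3 genes 0.178%, the 4 genes left out in that order 1.76%, 1.99%, 0.71% and 1.29%, 2 UMIs 0.627%, and the last alternative 1.73%. The number of higher genes was 491 after thinning (17 and 21 cells), 185 with 3 genes, 74 with no *Matn1* limit, 14 without *Gdf5* and 119 without *Wnt9a* in the rule, 140 with 2 UMIs, 62 without cells chosen by *Erg* and *Wnt9a* only, 64 with cells of 2 or more *Matn1* UMIs left out of the other cells, 51 with no minimum CPM, 9 at 50 CPM and 12 with a pseudocount of 10 CPM. The number of lower genes was 605 after thinning, 236 with 3 genes, 55 without *Erg* and 132 without *Wnt9a* in the rule, 102 with 2 UMIs, 7 without cells of other lineages, 68 without cells chosen by *Erg* and *Wnt9a* only, 69 with other cells weighted to the members' depth, 21 as a mean over cells, 111 with no minimum and 12 at 50 CPM. Fewer cells enter most of these settings; the cause was otherwise not tested. The distal cluster with the most members was a larger one at Leiden resolution 0.5 (33.3% of members, 11.5% of all cells) and without cartilage matrix genes (21.5%, 7.11%). Of 380 alternative ratios of the 20 named genes, 376 kept their sign; the others were *Pcolce2* (-0.14) and *Tnmd* (-0.27) with 2 UMIs, *Scx* (-0.27) after thinning and *Sfn* (0.14) without cells of other lineages. Of 270 list medians, 238 kept their sign. No paired analysis was possible because each segment is 1 library with no replicates and no result comes from a test.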
